A study of Mus musculus with 36 samples.

Results

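Liver DNA of B6 and C3 mice was compared for how far the difference between sires and dams depended on the strain. The measure was the interaction, that is the sire-minus-dam difference in percent methylation in B6 less the same difference in C3, taken in fixed 500-bp windows of the autosomes. A window entered with at least 5 CpGs and at least 30 counts in each of the 12 parents, which 1459337 of the 4254058 windows with a CpG did. A positive interaction means that the sires, relative to the dams of their own strain, had more methylation in B6 than in C3. A window was called when its Benjamini-Hochberg adjusted p from limma over all windows was below 0.05 and the interaction was at least 20 percentage points.

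The groups were 3 sires and 3 dams of the inbred strain C57BL/6N (B6) and 3 sires and 3 dams of C3H/HeN (C3), 12 of the 36 samples of the series. Livers of the parents and of their offspring were taken at the same age, week 20. The parents had been mated at 10 weeks of age, and the dams were at week 16 when their pups were weaned. The dams had therefore borne and nursed pups, so that sex and motherhood cannot be told apart in the parents. Their offspring, 3 sons and 3 daughters each of B6C3F1 (B6 dam, C3 sire) and C3B6F1 (C3 dam, B6 sire), served as a check. The daughters were virgins and the F1 animals carried autosomes of both strains, so that their contrast was not the same as that of the parents. A replicate was a separate animal. Whole pieces of liver were used, so that a change in the share of a cell type and a change within a cell type cannot be told apart.

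In mammals a methyl group is carried by most CpG cytosines, and regulatory regions that are in use tend to lose it. The liver is strongly sexually dimorphic: the pituitary of males releases growth hormone in pulses and that of females more evenly, and this pattern, through STAT5, sets the expression of many cytochrome P450 genes and of urinary proteins. Prolactin acts on the liver during pregnancy and lactation through its receptor, encoded by Prlr. A sequence variant near a CpG can alter which proteins bind there, so that inbred strains often differ in local methylation.

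The sequences of 5 called windows are shown here because they cover the main patterns described below and a window without a nearby sequence variant. They are the mm9 (NCBI37) sequence of the plus strand, and capitals mark the CpGs whose counts entered the window.

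Tram2 window, chr1:21094106-21094346, intergenic: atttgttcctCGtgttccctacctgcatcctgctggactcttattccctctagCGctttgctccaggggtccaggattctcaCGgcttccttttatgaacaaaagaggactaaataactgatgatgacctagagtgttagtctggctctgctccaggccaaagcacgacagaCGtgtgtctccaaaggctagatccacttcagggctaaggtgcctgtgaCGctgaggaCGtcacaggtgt
Gpr12 window, chr5:147409124-147409349, intergenic: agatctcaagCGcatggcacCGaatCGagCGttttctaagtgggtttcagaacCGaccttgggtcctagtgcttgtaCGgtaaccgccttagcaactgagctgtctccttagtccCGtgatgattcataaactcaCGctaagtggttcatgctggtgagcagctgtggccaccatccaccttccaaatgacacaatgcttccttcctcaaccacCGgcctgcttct
Gm12718 window, chr4:103056096-103056395, intronic: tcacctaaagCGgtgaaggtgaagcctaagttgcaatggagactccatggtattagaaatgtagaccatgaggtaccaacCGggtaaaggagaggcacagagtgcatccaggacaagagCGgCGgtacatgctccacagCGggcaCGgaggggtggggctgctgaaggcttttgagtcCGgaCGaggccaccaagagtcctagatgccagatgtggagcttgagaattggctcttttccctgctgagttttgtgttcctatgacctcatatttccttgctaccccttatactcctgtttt
Srgap3 window, chr6:112823248-112823481, intronic: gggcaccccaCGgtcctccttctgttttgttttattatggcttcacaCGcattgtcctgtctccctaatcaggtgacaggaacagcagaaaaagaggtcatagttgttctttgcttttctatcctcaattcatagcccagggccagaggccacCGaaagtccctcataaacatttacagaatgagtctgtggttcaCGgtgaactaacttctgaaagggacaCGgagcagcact
Med9 window, chr11:59745622-59745921, intergenic: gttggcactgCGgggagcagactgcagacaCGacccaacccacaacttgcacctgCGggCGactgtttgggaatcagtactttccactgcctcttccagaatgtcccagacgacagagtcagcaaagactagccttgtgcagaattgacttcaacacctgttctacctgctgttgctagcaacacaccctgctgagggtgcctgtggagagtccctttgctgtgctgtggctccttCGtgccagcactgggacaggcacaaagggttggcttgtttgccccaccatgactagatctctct

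Counted from 1 at the first base of each printed sequence, and with the mm9 base before the position and the C3 base after it, the substitutions listed for C3 were A21G and G36A in the Tram2 sequence, C85T in the Gpr12 sequence and C111T and T236G in the Med9 sequence. C85T removes a CpG, which is in lower case because the authors kept a CpG where both strains have it, and so does C111T. The list held 0 substitutions in the printed Gm12718 and Srgap3 sequences.

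The total of counts on the 18887127 autosomal CpGs lay between 365740739 and 610111148 in the parents, or 19.4 to 32.3 counts per CpG. Near the start sites of marker genes, hepatocyte genes such as Alb and Apoa1 had mean levels of 27.2 to 34.3% in the 4 groups and leukocyte genes such as Ptprc and Cd3e 81.1 to 83.8%. The hepatocyte mean was 34.3% in B6 sires and 28.5% in B6 dams but 27.2% in the sires and in the dams of C3. This was an interaction of 5.78 points over 10 genes, while leukocyte genes gave -0.319 points over 12. Endothelial, cholangiocyte, stellate and Kupffer cell genes lay between them, at 2.08, 1.26, 1.05 and 0.601 points. The part of cell composition in the results below was not tested.

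Most of the sire-dam difference had the same direction in the 2 strains. Of the windows tested, 1433 were called between sires and dams in B6 (percent called, 0.0982) and 2231 in C3 (percent called, 0.153), with dams higher in 882 and in 1453 of them. The sets shared 902 windows, which are 62.9% of the B6 and 40.4% of the C3 set, and 0 of these had opposite signs. These 2 contrasts used different animals. The mean of the sire-dam differences of both strains was called in 1516 windows (percent called, 0.104). In the B6 set the C3 animals differed in the same direction in 1416 windows (98.8%), and in the C3 set the B6 animals did so in 2172 (97.4%), against 56.9% of all windows tested.

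The size of the difference was less alike than its direction. In the windows with higher dams in C3 the median difference was -25.7 points in C3 and -18.3 points in B6. In the windows with higher dams in B6 it was -25.6 points in B6 and -25.7 points in C3. The windows with higher sires gave 24.2 points in C3 against 17.4 in B6, and 24.8 points in B6 against 21.2 in C3, for the C3 and the B6 set in turn. The strain that chose a set tends to have the larger value there, so that these medians are given as a description.

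The interaction was called in 14 windows of the 1459337 (percent called, 0.000959), with a positive interaction in 10 and a negative one in 4. An adjusted p below 0.05 was found in 17 windows, and an unadjusted p below 0.05 in 79194 (5.427%) of all windows tested. An interaction of at least 20 points was seen in 652 windows (0.0447%). Of the 14 called windows, 3 were called between sires and dams in B6 and not C3, 8 in C3 and not B6, 1 in both and 2 in neither. A quasi-binomial logistic model of the same counts called 87 windows (percent called, 0.00596), 51 positive and 36 negative, and 13 of the 14 were among them. Limma called 36 windows with a pseudocount of 5 in place of 1 and 4 with counts thinned to the shallowest parent. With moderated variances fitted without trend or robust estimation it called 0, where 78241 windows had an unadjusted p below 0.05. The number of interaction calls therefore depended on the model and its settings. With a single parent left out limma called 0 windows (without C3 sire 1, C3 sire 2 or C3 dam 2) to 10 windows (without C3 sire 3).

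**Figure D1:**
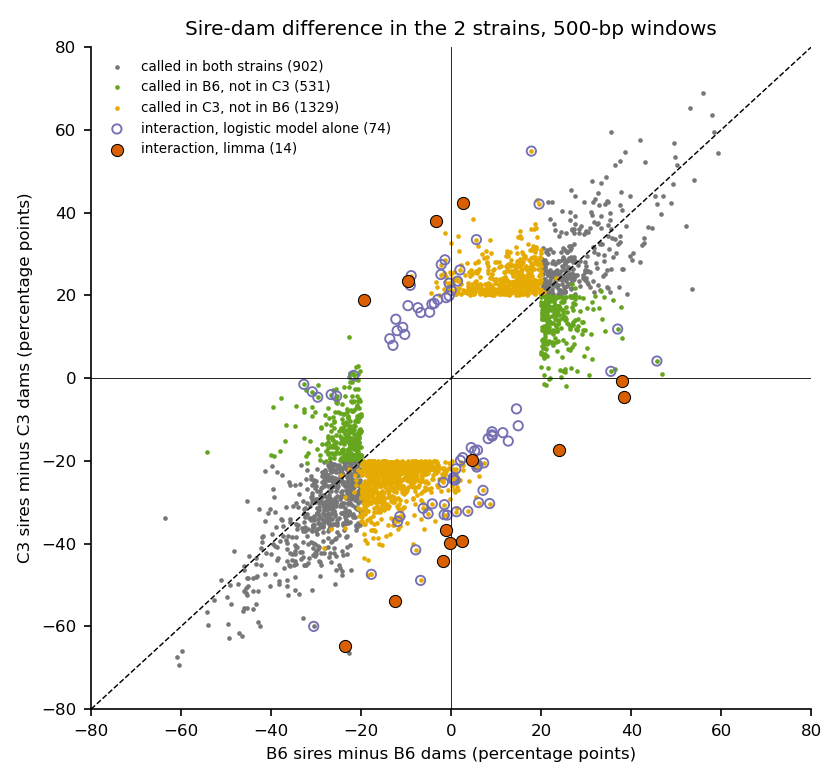
Sire-minus-dam difference in percentage points in B6 (horizontal axis) and in C3 (vertical axis), 1 point per 500-bp window called in at least 1 strain or for the interaction by either model (open circles, logistic model alone). Most points lie in the lower left and upper right, where the strains have the same sign, while the 14 windows called for the interaction by limma (orange) lie at least 24.3 points above or below the dashed line of equal differences.

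The 14 called windows had an absolute interaction of 24.3 to 42.8 points, adjusted p-values of 0.00844 to 0.0482 and 5 to 68 CpGs. With each of the 12 parents left out in turn, the call was kept in 9 of the 12 fits for the Med9 window, 6 for Srek1, 4 for Uhrf1bp1l, 3 for Gpr12 and Leprot, 2 for Tram2 and Abca17, 1 for Gm12718, Srgap3, Gprc5c, Hrh4 and Snd1, and 0 for Nudt7 and Irf2bp2. They are named here by the gene in which they lie or, outside genes, by the nearest protein-coding start site, which lay up to 381455 bp away, so that a name is a place and not a target. In 11 of the 14 a single group lay entirely above or below the other 9 parents, in the Med9 and Irf2bp2 windows both C3 groups did so on opposite sides, and in the Uhrf1bp1l window no group did. The windows were chosen on these 12 animals (percent called, 0.000959), and the share of all windows with a group apart was not counted. This is therefore only a description of their patterns.

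**Figure D2:**
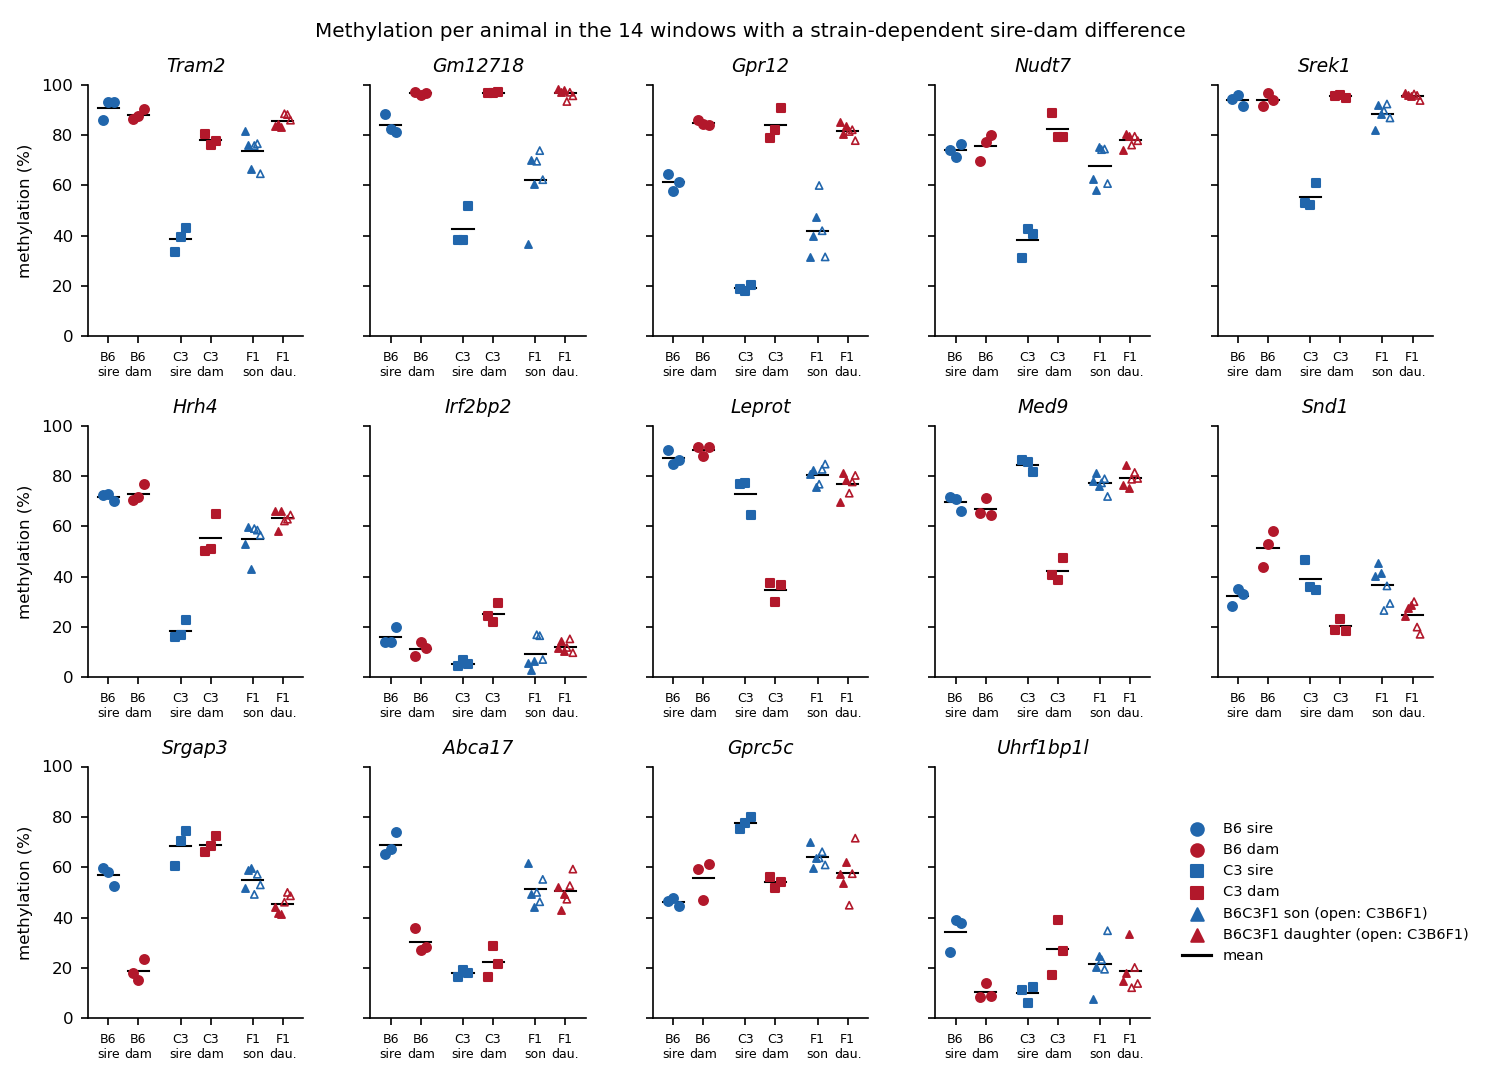
Percent methylation per animal (vertical axis, 0 to 100%) in the 14 called windows, with B6 and C3 parents and F1 offspring side by side and bars at the means. C3 sires stand below all other parents in the first 7 panels, and the mean of the F1 sons lies between the means of the B6 and C3 sires in 13 of the 14 windows, although single sons lie outside the range of the sires in some.

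The most frequent pattern was low methylation in C3 sires, in 7 windows. In the Tram2 window (chr1:21094001-21094500, 6 CpGs, 24691 bp from the start site), C3 sires had 33.3, 39.5 and 43.1% methylation and C3 dams 80.5, 76.0 and 77.5%. B6 sires had 85.7, 92.9 and 92.9% and B6 dams 86.5, 87.4 and 90.4%. The sexes overlapped in B6 and were far apart in C3, an interaction of 41.8 points (log2 ratio 2.87, SE 0.37, adjusted p = 0.0285). Tram2 encodes a protein associated with the translocon of the endoplasmic reticulum.

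In the Srek1 window (chr13:104380501-104381000, 6 CpGs, intergenic, 173584 bp from the start site), C3 sires had 53.0, 52.2 and 60.8% methylation. The other 9 parents lay between 91.4 and 96.7%, so that 3 of the 4 groups were almost fully methylated. The interaction was 39.7 points (log2 ratio 3.72, SE 0.45, adjusted p = 0.022). Srek1 encodes a splicing regulator.

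The Hrh4 window on chromosome 18 (5 CpGs, intergenic, 381455 bp from the start site of this histamine receptor gene) gave 15.9, 16.7 and 22.8% in C3 sires and 50.3, 50.8 and 64.8% in C3 dams. B6 parents of both sexes lay between 69.8 and 76.6%. Here C3 dams, too, were below the B6 dams, by 17.6 points, and the interaction was 35.6 points.

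The Nudt7 window (chr8:116639501-116640000, 7 CpGs, 17457 bp from the start site) gave 31.0, 42.7 and 40.7% in C3 sires against 88.8, 79.0 and 79.1% in C3 dams, while B6 sires, at 74.1, 71.1 and 76.25%, lay within the range of the B6 dams. Nudt7 encodes a peroxisomal hydrolase of coenzyme A and was on the list of genes with male-biased expression, although this window lies outside the 5 kb that were counted to a gene. Its C3 depth, 12.4 to 14.6 counts per CpG and animal, was below that of B6, 23.1 to 23.3. The interaction of 42.4 points had an adjusted p of 0.0286.

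At Gpr12 and Gm12718 the B6 animals differed too, in the same direction as in C3 and by less. In the Gpr12 window (chr5:147409001-147409500, 9 CpGs, 12186 bp from the start site of this orphan receptor gene), B6 sires had 64.4, 57.7 and 61.3% and B6 dams 85.7, 84.4 and 84.0%. C3 sires had 18.8, 18.1 and 20.4% and C3 dams 78.9, 81.8 and 90.8%. Dams of the 2 strains overlapped and sires did not, and the sire-minus-dam difference was -23.6 points in B6 and -64.7 points in C3. This was the window called between sires and dams in both strains.

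The Gm12718 window (chr4:103056001-103056500, 9 CpGs, in an intron of a non-coding gene, 69584 bp from the start site of Oma1, which encodes a mitochondrial protease) had 96.0 to 96.9% in all 6 dams. B6 sires had 88.3, 82.3 and 81.3% and C3 sires 38.4, 38.3 and 51.7%. The sire-dam difference was -12.5 points in B6 (adjusted p = 9.0e-05) and -53.9 points in C3 (adjusted p = 8.6e-10), the former below the 20 points of a call.

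The Irf2bp2 window (chr8:129187001-129187500, 5 CpGs, intergenic, 69665 bp from the start site of this transcriptional co-repressor gene) was low in all animals. C3 sires had 4.5, 6.8 and 5.1% and C3 dams 24.2, 21.8 and 29.5%, on either side of the B6 parents at 8.6 to 19.8%. Its interaction of 24.3 points was the smallest of the 14.

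C3 dams stood below all other parents in 3 windows. In the Med9 window (chr11:59745501-59746000, 7 CpGs, 15708 bp from the start site of this Mediator subunit gene), C3 dams had 40.5, 38.5 and 47.3% and C3 sires 86.1, 85.5 and 81.5%. B6 sires had 71.8, 70.9 and 66.2% and B6 dams 65.2, 71.03 and 64.6%. The sexes overlapped in B6, and in C3 they lay on either side of the B6 animals, with an interaction of -39.6 points (log2 ratio -2.69, SE 0.30, adjusted p = 0.00844). It was the smallest adjusted p of all windows tested. The windows before and after it had interactions of -24.2 and -12.8 points.

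In the Leprot window (chr4:101333501-101334000, 6 CpGs, intergenic, 13103 bp from the start site of this gene, which shares its promoter region with the leptin receptor gene), C3 dams had 37.6, 30.0 and 36.8% against 76.9, 77.4 and 64.4% in C3 sires. B6 parents lay between 84.5 and 91.4%. Depth in C3 was 10.7 to 11.3 counts per CpG and animal against 35.4 to 37.8 in B6, so that the C3 values rest on fewer counts.

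The Snd1 window (chr6:28782501-28783000) differed from the others in kind. It holds 68 CpGs at 75.4% G and C, lies in an intron of Snd1 and 754 bp from the start site of Lrrc4, a synaptic adhesion gene that lies within Snd1, and has its nearest listed SNV 15084 bp away. B6 sires had 28.2, 35.2 and 33.2%, B6 dams 43.7, 53.0 and 57.9%, C3 sires 46.6, 35.8 and 34.9% and C3 dams 18.9, 23.1 and 18.5%. The difference had opposite signs, -19.3 points in B6 and 18.9 points in C3, and the windows before and after it had interactions of -31.2 and -18.8 points. Its depth was 10.2 to 16.4 counts per CpG, and it was the called window that the logistic model left out (adjusted p = 0.38).

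In the other 4 windows B6 dams, B6 sires or C3 sires stood apart, or both strains differed. In the Srgap3 window (chr6:112823001-112823500, 5 CpGs, intron of this GTPase-activating gene of neuronal guidance) B6 dams had 18.0, 15.2 and 23.4%, and the other 9 parents 52.6 to 74.2%. In the Abca17 window (chr17:24402001-24402500, 7 CpGs, exonic in this ABC transporter gene) B6 sires had 65.2, 67.1 and 74.0%, B6 dams 35.9, 27.0 and 28.2% and C3 parents 16.4 to 28.8%. Single groups of B6 thus stood apart there, with B6 sire-dam differences of 37.9 points at Srgap3 and 38.4 points at Abca17 against -0.619 and -4.47 points in C3.

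In the Gprc5c window (chr11:114729501-114730000, 13 CpGs, exonic in this gene of a retinoic acid-inducible receptor family, 3695 bp from the start site) C3 sires had 75.1, 77.5 and 79.9%, above all other parents at 44.4 to 61.3%. In the Uhrf1bp1l window (chr10:89232001-89232500, 6 CpGs, intronic) B6 sires had 26.4, 39.0 and 37.7% and B6 dams 8.5, 13.9 and 8.8%, while C3 sires had 11.2, 6.2 and 12.6% and C3 dams 17.0, 39.0 and 26.6%. This is a reversal between strains in which both differences had an adjusted p below 0.05, 23.98 points in B6 (adjusted p = 0.00501) and -17.5 points in C3 (adjusted p = 0.0334). At Snd1 this held for C3 (adjusted p = 0.0109) and not for B6 (adjusted p = 0.0559).

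Sons and daughters of the F1 crosses, which the interaction did not use, did not overlap in 4 of the 14 windows. The share of all F1 windows without overlap was not counted, and the shares below use other criteria. F1 sons had 64.6 to 81.4% and daughters 83.2 to 88.4% in the Tram2 window, 36.7 to 73.8% and 93.3 to 98.1% in the Gm12718 window, 31.3 to 59.9% and 77.7 to 85.3% in the Gpr12 window, and 81.8 to 92.3% and 93.7 to 96.6% in the Srek1 window. The son-minus-daughter difference was -12.1, -34.3, -39.7 and -7.20 points in this order, with adjusted p-values of 0.00604, 7.4e-09, 1.7e-07 and 0.00527 from limma. Over all F1 windows 4325 of 1456902 had an adjusted p below 0.05. With the 20 points of a call, 744 did (percent called, 0.0511), or 484 in the windows with at least 100 counts in each animal, and of the 14 only the Gm12718 and Gpr12 windows were among these. Of the windows called between sires and dams in either strain, 678 of 2761 (24.6%) were among these. In all 4 windows with separate sons and daughters the C3 sires had stood apart as low. The other 10 windows had overlapping sons and daughters and adjusted p-values of 0.0589 to 0.99.

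In 3 of the 4 windows in which dams were the low group, the mean of the F1 daughters was far from that of these dams. In the Med9 window daughters had 79.1% ± 3.28 (SD, n = 6) and sons 77.1% ± 3.10, against 42.1% ± 4.61 (n = 3) in C3 dams. In the Leprot window daughters had 76.7% ± 4.42 against 34.8% ± 4.20 in C3 dams. In the Srgap3 window daughters had 45.4% ± 3.52 against 18.9% ± 4.19 in B6 dams and 69.0% ± 3.29 in C3 dams. The Snd1 window was the other, where daughters had 24.6% ± 5.19 against 20.2% ± 2.55 in C3 dams and 51.5% in B6 dams. Daughters, unlike dams, carried both strains' alleles and had borne no pups, and the part of each cannot be told apart here.

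F1 sons had a mean between the B6 and C3 sires in 13 of the 14 windows, the Srgap3 window being the other. F1 daughters had a mean between the B6 and C3 dams in 8. Over all windows the shares were 46.6% for sons and 43.3% for daughters, and where the means of the strains were at least 20 points apart they were 99.3% and 98.1%, so that a mean between the strains was not particular to the 14 windows. The sign of the F1 difference was that of C3 in 10 windows and that of B6 in 8, with 6 windows in which the strains themselves had the same sign. Over all windows the sign was that of C3 in 53.5% and that of B6 in 52.7%, and 8 of 14 is near the latter. In windows called between sires and dams in either strain it was that of C3 in 92.4% and that of B6 in 91.5%. Neither count of the 14 was high beside these shares.

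**Figure D3:**
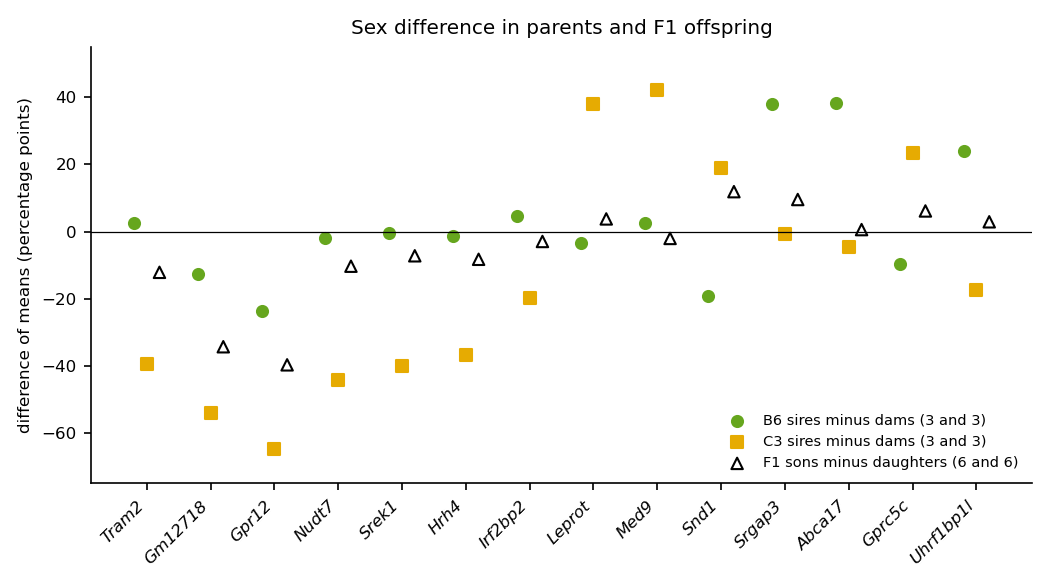
Difference of mean methylation in percentage points (vertical axis) in the 14 windows for B6 sires minus dams (circles), C3 sires minus dams (squares) and F1 sons minus daughters (triangles). The F1 differences lie between -39.7 and 11.9 points and are largest in the Gpr12 and Gm12718 windows, where both strains had lower sires.

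The reciprocal crosses, which carry the same autosomal alleles, gave a contrast of the same form with the same number of animals. The difference of the son-daughter contrast between B6C3F1 and C3B6F1 was called by limma in 0 of 1456902 windows (percent called, 0.00), with 69442 at an unadjusted p below 0.05, and by the logistic model in 2. The son-daughter difference was called in 875 windows in B6C3F1 (percent called, 0.0601) and in 594 in C3B6F1 (percent called, 0.0408).

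Sire-dam differences with higher dams were also called in F1 animals in a larger share than those with higher sires. Of the windows with higher dams in B6, 495 of 881 (56.2%) were also called between F1 sons and daughters, and of those with higher sires 45 of 551 (8.17%). The median F1 difference was -21.0 points in the former and 4.81 points in the latter. For the C3 set the shares were 39.8% and 5.66%. The F1 calls as a whole had the same imbalance, with lower methylation in sons in 692 of 744. They held 0.126% of all windows with higher dams and 0.00595% of those with higher sires. Of these 744, 678 lay in windows called between sires and dams in either strain. The F1 calls as a whole therefore cannot show whether the imbalance is particular to these sets.

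Windows called for the interaction lay mostly near SNVs between the strains. An SNV was listed within 1 kb of 12 of the 14 windows (85.7%, exact 95% binomial interval 57.2 to 98.2) and of 39.1% of all windows tested. The share was 75.9% (66 of 87 windows, interval 65.5 to 84.4) for the logistic model, and 36.6% and 38.6% for windows called between sires and dams in B6 and in C3. Windows called between B6 and C3 sires had 86.4%. The exceptions among the 14 were the Gm12718 window, with its nearest SNV 2188 bp away, and the Snd1 window. An SNV inside the window was listed for 11 of the 14 against 22.1% of all windows. A CpG that C3 lacks was listed for 5, at Gpr12, Srek1, Abca17, Leprot and Med9, where 10.97% of all windows have a CpG that 1 of the strains lacks. Such a CpG needs an SNV, and over all windows 160114 had such a CpG where 321830 had an SNV inside. The 5 are therefore not a trait apart from the 11.

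Among windows with a sire-dam difference the median size of the interaction was larger where SNVs were denser. In the C3 set the median absolute interaction was 7.76 points with no SNV within 1 kb, 9.8 with 1 to 4, 12.7 with 5 to 19 and 15.97 with 20 or more, over 1370, 448, 381 and 32 windows. In the B6 set it was 5.77, 6.42, 8.52 and 8.68 points, over 909, 277, 225 and 22 windows. Over all windows it moved from 2.02 to 2.29 points. An interaction of at least 20 points was found in 5.33, 10.0, 21.0 and 34.4% of the C3 set in the same order. In the B6 set these shares were 1.87, 8.30, 19.1 and 18.2%, without a further rise in the densest class. Limma called the interaction in 11 of 250566 windows with 5 to 19 SNVs and in 0 of 23282 with 20 or more.

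C3 depth fell over the same classes, from a median of 29.0 counts per CpG and animal without SNVs to 21.6 with 20 or more, while B6 depth went from 30.1 to 32.4, and reads of both strains had been aligned to mm9, which is B6 in origin. The part of alignment in this relation was not tested. With CpGs within 10 bp of an SNV left out, 11 windows were called and 10 of the 14 were among them.

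**Figure D4:**
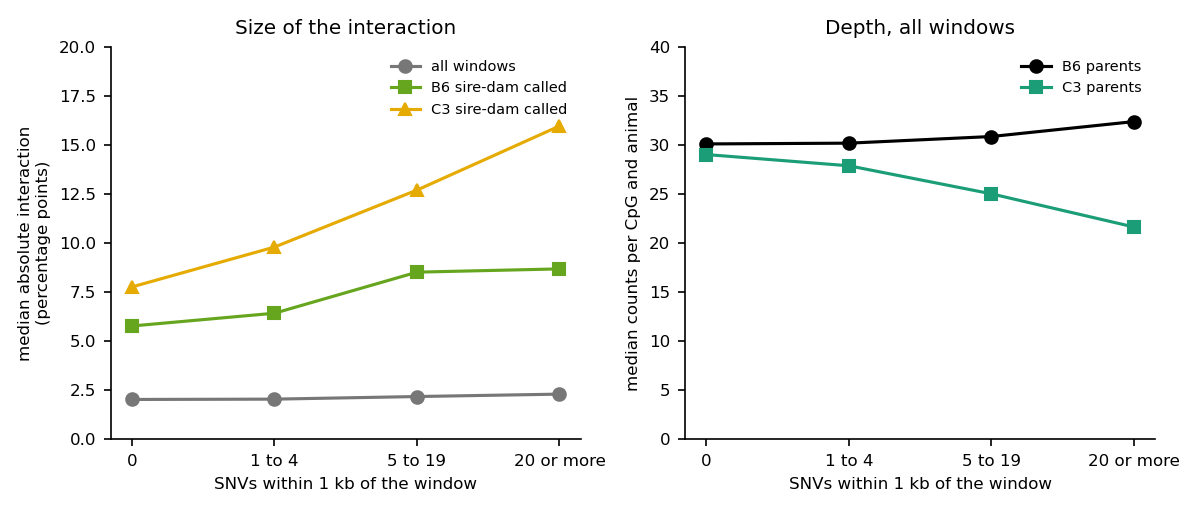
Median absolute interaction in percentage points (left) and median counts per CpG and animal (right) by the number of SNVs within 1 kb of a window (horizontal axis). In windows called between sires and dams in C3 the interaction goes from 7.76 to 15.97 points, and over all windows the depth of C3 parents goes from 29.0 to 21.6 counts.

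The distance to the start site of a protein-coding transcript was over 10 kb in 12 of the 14 windows (85.7%), in 67.8% of the 87 windows of the logistic model and in 73.7% of all windows, so that the 14 were near the share of all windows. Their median G and C content was 47.4% and that of all windows 46.0%. By location 2 were exonic, 4 intronic and 8 intergenic, where the windows tested had 15.5, 38.7 and 45.8%.

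The genes known for sex-biased expression in liver had many sire-dam differences and 0 called interactions. Of 27 male-biased genes 24 had a tested window within 5 kb, and 30 of these 533 windows were called between sires and dams in B6 and 34 in C3, or 39 in either strain, and all 39 had the same sign in both strains, as did 97.2% of the 2762 windows called in either strain among all 1459337. Of 41 female-biased genes 40 had such windows, and the counts were 53 and 61 of 1864 windows, or 74 in either, again with the same sign in all 74, near that share. The share of all windows was 0.0982% in B6 and 0.153% in C3. Of the 15 gene lists examined, 0 held a window with an interaction called by limma, where 0.000959% of all windows were called, so that the lists are too small for this count to set them apart.

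The male-biased set had its largest interaction at Elovl3, which encodes an elongase of very long fatty acids. In its window chr19:46207001-46207500, B6 sires had 11.003% and B6 dams 33.7%, and C3 sires had 15.7% and C3 dams 82.2%. The interaction of 43.8 points, the largest in size of all list windows, did not pass (adjusted p = 0.426, limma), and the F1 son-minus-daughter difference was -35.2 points. In 5 of the 17 Elovl3 windows the sire-dam difference was called in both strains. At Cyp2d9, a male-specific steroid hydroxylase gene, 5 of 8 windows were called in both strains, with interactions between -9.79 and 11.6 points. At Cyp2u1, a fatty acid hydroxylase gene, C3 sires had 35.4% and C3 dams 69.5% in 1 window against 50.5% and 57.3% in B6, an interaction of 27.4 points that did not pass (adjusted p = 0.663).

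Among female-biased genes, Cyp2a4, which encodes a testosterone hydroxylase, was called in 5 of 12 windows in B6 and in 8 in C3, with negative interactions in each of the 12, between -20.1 and -2.88 points. The smallest adjusted p of these interactions was 0.84. Cyp2a4, like the Cyp2c, Cyp2d and Mup genes, has close copies in the genome, between which reads may have been split. Cyp2c69 had called differences in 6 of 7 windows in B6 and 3 in C3, and all 7 interactions were positive (1.39 to 16.1 points, smallest adjusted p 0.871). A1bg, which encodes a plasma glycoprotein, had 4 of 10 windows called in both strains, the interactions lying between -7.35 and 6.08 points. For the transcription factor Cux2, which is female-specific in liver, 7 of 359 windows were called in B6, 9 in C3 and 5 in both.

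In the pathway of growth hormone and prolactin, 27 of 1594 windows near 22 genes were called in B6 and 47 in C3. The sign was the same in all 54 called in either, near the 97.2% of all such windows. Prlr and Cux2 were also on the female-biased list, so that their windows were counted in both lists. The prolactin receptor gene Prlr had 16 of 110 windows called in B6, 18 in C3 and 13 in both, and its median interaction was 0.684 points. The growth hormone receptor gene Ghr had a window in which C3 sires had 26.0% and C3 dams 57.5% against 45.9% and 52.2% in B6. This interaction of 25.2 points passed the logistic model (adjusted p = 0.0365) and not limma (adjusted p = 0.524). The gene of the epidermal growth factor receptor, Egfr, had 14 of 112 windows called in C3 and 1 in B6, and in the window of the smallest p the difference was -30.2 points in C3 and -6.37 points in B6, again without passing limma (adjusted p = 0.318).

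Windows of Esr1 and Apob, too, passed the logistic model and not limma. In a window of Esr1, the estrogen receptor alpha gene (chr10:5633501-5634000, 50 CpGs), B6 sires had 48.2% and B6 dams 60.1%, and C3 sires 32.0% and C3 dams 66.6% (interaction 22.8 points, logistic adjusted p = 0.00174, limma adjusted p = 0.627). In a window of Apob, the gene of the main protein of low-density lipoprotein (chr12:7984001-7984500, 13 CpGs), B6 sires had 26.3% and B6 dams 17.2%, and C3 sires 11.6% and C3 dams 25.6% (interaction 23.1 points, logistic adjusted p = 0.00488, limma adjusted p = 0.428).

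Among all windows 2762 of 1459337 were called between sires and dams in either strain. Of the remaining lists these numbered 5 of 1208 for liver transcription factors, 8 of 1077 for steroid hormone receptors and enzymes, 16 of 979 for lipid and bile acid metabolism, 1 of 762 for the DNA methylation machinery, 1 of 425 for liver growth and cell cycle and 1 of 95 for the regulation of sex-limited protein. For marker genes of cell types they numbered 2 of 321 for hepatocytes, 1 of 172 for Kupffer cells and macrophages, 4 of 729 for endothelium and 0 of 347, 596 and 115 for leukocytes, stellate cells and cholangiocytes. All of these had the same sign in both strains, as did 97.2% of all windows called in either, and the lists with 1 or 2 called windows are too small to be set apart from all windows.

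Over the genome the strain dependence was small and differed between 2 summaries of the animals. As a share of summed counts over all autosomal CpGs, B6 sires had 76.7% ± 0.210 (SD, n = 3) and B6 dams 75.3% ± 0.348, and C3 sires had 77.1% ± 0.172 and C3 dams 76.8% ± 0.456. The sire-dam difference was 1.38 points in B6 and 0.314 points in C3, an interaction of 1.07 points (permutation of strain labels within sex over all 400 arrangements after the mean of each strain was subtracted, two-sided p = 0.02, where 0.005 is the smallest possible). Over the 10 measures examined the adjusted p was 0.15. As the mean over the 1459337 windows tested, which gives each window the same weight and leaves out the CpGs of other windows, the differences were 0.552 and 0.607 points and the interaction was -0.0548 points (same permutation test, p = 0.825). The parts of the weight and of the CpGs in this change were not tested. Windows with a mean methylation under 20% had an interaction of 0.581 points (same permutation test, p = 0.03, adjusted 0.15), and the other 7 measures had unadjusted p-values of 0.46 to 0.975.

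**Figure D5:**
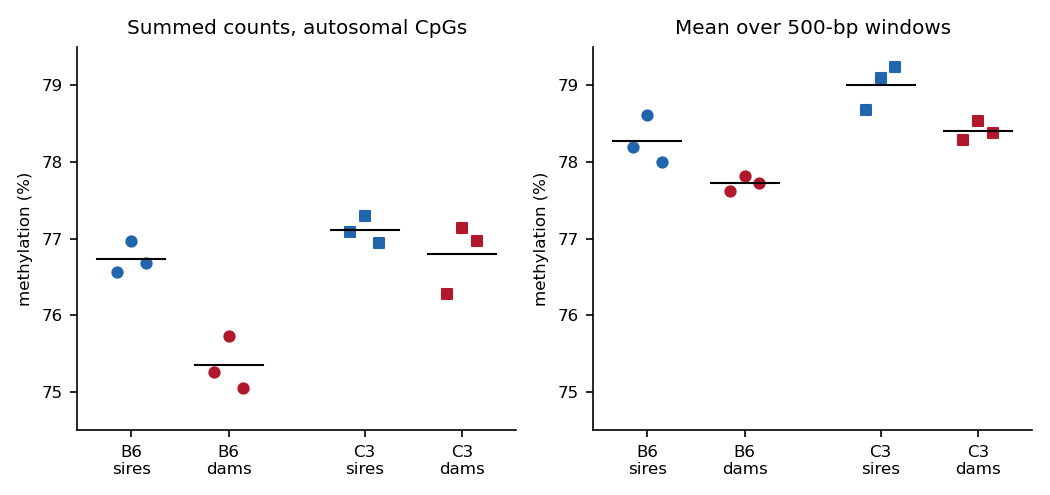
Percent methylation per animal (vertical axis, which does not start at 0) as the share of summed counts over autosomal CpGs (left) and as the mean over 500-bp windows (right), with bars at group means. On the left the B6 sires and dams differ by 1.38 points and the C3 animals by 0.314, and on the right the 2 differences are 0.552 and 0.607 points.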

How the data were processed

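Whole-genome bisulfite sequencing measured methylation of liver DNA in 24 mice, of which the 12 parents gave the interaction and the 12 F1 animals the check. The authors deposited raw counts of methylated and of unmethylated reads per CpG and animal, both strands together. To make them the authors filtered reads for base quality, aligned them with Bismark 0.7.8 and Bowtie 0.12.8 (versions also in the submitters' processing notes, with CASAVA 1.8.2 and Picard 1.110) to mm9 with the lambda phage genome, removed duplicates and merged libraries per animal, and kept CpGs shared by mm9 and both strains. The deposited list of SNVs holds 2867244 positions, 2811885 of them autosomal, each with the bases found in mm9 and in the 2 strains. All 24 columns of each count file were used and 0 were left unused. Samples of FOXA1 chromatin immunoprecipitation were not used here.

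Counts were summed in windows of 500 bp without normalization. limma 3.58.1 (R 4.3.3) was fitted to log2((methylated + 1)/(unmethylated + 1)) of the 12 parents with a mean per group and trended, robust variances, and separately to the 12 F1 animals. A call needed an adjusted p below 0.05 and 20 percentage points between group means, with the same sign on both scales. The logistic model used the summed counts per group with moderated overdispersion. P-values of both models rest on the spread between animals, moderated toward that of other windows. In limma for the parents the median prior degrees of freedom were 14.54, so that a large part of each variance came from other windows. Both models were also run on simulated counts, with a fixed spread between animals and changes added only as drops in C3 sires. These settings are narrower than the data, and the outcome is not used here as support for the calls. Binomial intervals of shares of windows cover only the error of counting windows, which are not independent. Python 3 with numpy, pandas and matplotlib did the rest, with genes and start sites from GENCODE for NCBI37, counted within 5 kb (lists) or 1 kb (markers).

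Named windows are the called ones, at most 12 per direction, with at least 10 counts per CpG in each parental group and no overlap of sires and dams in the strain of the larger difference, 1 per run within 1000 bp, and called windows near list genes. All 14 met this. The windows, gene lists and tests were chosen with earlier results of these data known. Other list windows in the text were chosen after their values were seen. Alternatives were all 24 animals in the fit, the replicate number as a block, a pseudocount of 5, at least 100 counts and the arcsine scale. Others were the logistic model, 10 points, centring, thinned counts and no CpGs within 10 bp of an SNV. The last were moderated variances without trend or robust estimation, and leaving out each parent. The logistic model for the contrasts other than the interaction was added after seeing the data.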

Additional observations from a re-analysis of the deposited data

Results flagged for a closer look

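In each of the 14 called windows the sire-dam difference differed between B6 and C3 by the test of the interaction itself, at an adjusted p from limma between 0.00844 and 0.0482. The interaction was 41.8 points in the Tram2 window, 41.4 in the Gm12718 window, 41.2 in the Gpr12 window, 42.4 in the Nudt7 window, 39.7 in the Srek1 window, 35.6 in the Hrh4 window and 24.3 in the Irf2bp2 window, where C3 sires were the low group. With low C3 dams it was -41.3 points in the Leprot window, -39.6 in the Med9 window and -38.2 in the Snd1 window. It was 38.5 points in the Srgap3 window, 42.8 in the Abca17 window, -33.0 in the Gprc5c window and 41.5 in the Uhrf1bp1l window.

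In the Gm12718 window the first B6C3F1 son had 36.7% methylation, while the other 5 F1 sons had 60.4 to 73.8%, a gap above the 95% limit of Dixon's test for 6 animals, which flags about 1 group in 20 by chance.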

How the results depend on the processing

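The 14 interaction calls were sensitive to the settings. Limma called 36 windows with a pseudocount of 5 and 4 with counts thinned to the shallowest parent. Without trend or robust estimation of the variance it called 0 (78241 windows at an unadjusted p below 0.05), and the logistic model called 87. The other settings gave 11 to 20. Without 1 animal the count was 0 to 10: 0 without C3_M replicate 1, C3_M replicate 2 or C3_F replicate 2, with 77777 to 84056 windows at an unadjusted p below 0.05, 1 without B6_M replicate 2 or B6_F replicate 3, 2 and 4 without B6_M replicates 3 and 1, 5 and 6 without B6_F replicates 1 and 2, 7 and 3 without C3_F replicates 1 and 3, and 10 without C3_M replicate 3. Fewer counts or animals enter the thinned and reduced fits, and the cause of the changes was not tested for any setting. No called window changed sign in any of the alternatives run, in which its interaction kept between 22.1 and 49.5 points in size. The points come from the raw counts, so that only thinning and leaving out CpGs or animals could change them. These fits used the animals on which the windows were chosen, so that a kept sign or size is not separate support. The share of positive interactions, 71.4%, was 83.3% with animals centred on their median, 61.1% with a pseudocount of 5, 57.9% with at least 100 counts and 58.6% with the logistic model.

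Windows called between sires and dams numbered 1069 to 1493 in B6 and 1615 to 2508 in C3, within 1.5 times the 1433 and 2231 reported, with all 24 animals, the block, a pseudocount of 5, at least 100 counts, the logistic model or 1 animal left out, and the other settings were not run for them. The F1 son-daughter count was 484 with at least 100 counts and 744 with the block, a pseudocount of 5 and the logistic model, in which each of the 744 windows with a difference of at least 20 points passed. The cross-dependent count was 1 with a pseudocount of 5 and 2 with the logistic model. The global interaction of 1.07 points was -0.0548 as the mean over windows and 0.9 to 1.33 without 1 animal. The share of called windows near an SNV was 76.5% at 10 points and 75.9% with the logistic model.

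With the replicate number as a block the interaction was called in 12 windows, 10 of them among the 14, and the sire-dam difference in 1439 windows of B6 and 2237 of C3, the F1 difference in 744 and the cross-dependent one in 0. Deviations of parents of the same number had r between -0.00883 and 0.0177 (18 pairs, median 0.0059), and 36 pairs of different numbers had a median of -0.0017. Other same-number pairs, F1 animals included, reached 0.0648 (66 pairs, median 0.0059), and 132 pairs of different numbers had a median of -0.0022. The medians were thus slightly higher in same-number pairs, but every r was small, and the numbers were not taken to pair the samples. The families that the animals came from are not given in the labels. Counts per CpG in C3 were lowest in the Leprot, Nudt7, Uhrf1bp1l and Snd1 windows, at 10.2 to 14.7. Summed over the window, C3 parents had 38 to 85 counts at Leprot but 357 to 1205 at Snd1 with its 68 CpGs.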

Other observations

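Among the 74 windows called by the logistic model and not by limma, 3 in liver genes are given here, chosen after their values were seen. In an intron of Scp2, which encodes a carrier of sterols (chr4:107776501-107777000, 8 CpGs), C3 sires had 30.9% and C3 dams 79.8% methylation against 75.5% and 82.4% in B6, an interaction of 42.1 points (logistic adjusted p = 0.000464, limma adjusted p = 0.185), and F1 sons had 60.95% and daughters 80.1%. In an intron of Cyp2c67, a cytochrome P450 gene (chr19:39722001-39722500, 9 CpGs), C3 sires had 24.8% and C3 dams 72.2% against 61.8% and 79.6% in B6, an interaction of 29.7 points (logistic adjusted p = 0.00296, limma adjusted p = 0.365), and F1 sons had 40.4% and daughters 70.8%. In an exonic window of Acadm, which encodes an enzyme of fatty acid oxidation (chr3:153592501-153593000, 12 CpGs), C3 sires had 11.5% and C3 dams 44.97% against 26.8% and 38.2% in B6, an interaction of 22.0 points (logistic adjusted p = 0.00568, limma adjusted p = 0.541), with the nearest listed SNV 264807 bp away.

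In all 3 windows C3 sires had the lowest mean of the parents, which is a trait of the choice and not of the 87 windows. The interaction was negative in 36 of the 87. In windows of Dio1 and Fgl1, for instance, C3 sires had the highest mean of the parents, 65.8 and 92.0%. Of the 87 windows called by the logistic model, F1 sons and daughters differed at an adjusted p below 0.05 from limma in 18 (20.7%), against 4325 of all 1456902 F1 windows. Windows called between sires and dams in either strain were called in F1 animals, at 20 points as well, in 678 of 2761 (24.6%). The 20.7% was thus not high beside windows with a sire-dam difference. In the 87 windows F1 sons had a mean between the B6 and C3 sires in 64 (73.6%, against 46.6% of all windows). The sire-dam difference had opposite signs in the strains in 54 (62.1%, against 43.1% of all windows). A call needs an interaction of at least 20 points, which by its construction favours opposite signs and sires far apart.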
